A study of Homo sapiens with 6 samples.

Results

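The RUNX transcription factors RUNX1, RUNX2 and RUNX3 and their shared partner CBFB were followed in RPMI-8402 cells, a long-established line of human T-cell acute lymphoblastic leukaemia (T-ALL), after lentiviral delivery of short hairpin RNAs (shRNAs). The 4 genes were found by matching the RefSeq accession of each probe to a gene symbol, which placed 4 of the 19722 named genes, and 9 of the 57176 probes of the array, in this family, 5 for RUNX1, 2 for RUNX3 and 1 each for RUNX2 and CBFB. Cells received a non-target control shRNA, an shRNA that targets GATA3 (shGATA3) or one that targets TCF7, which encodes TCF1 (shTCF1), and EGFP-positive cells were sorted 48 h later. Each of the 3 groups had 2 arrays, which the study describes as independent experiments, and the comparisons ask how expression changes when each factor is targeted. All cells carried a lentivirus, and all groups came from the same cell line, so the groups stand for hairpin-treated leukaemia cells and not for normal thymocytes.

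RUNX proteins bind DNA through their Runt domain and bind it tightly only as a heterodimer with CBFB (CBFβ), which does not contact DNA itself. They activate or repress the same kinds of genes depending on the partners they recruit, such as Groucho/TLE and ETO-family corepressors or the acetyltransferases EP300 and CREBBP. In the thymus RUNX1 acts from the earliest progenitors on, RUNX3 silences CD4 and activates CD8A and cytotoxic genes in CD8 T cells and natural killer (NK) cells, and RUNX2 is best known as the master regulator of bone formation.

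Each RUNX gene can be transcribed from a distal and a proximal promoter, and RUNX sites in the distal one are a known feature of the family. The promoter windows of RefSeq (GRCh38.p14; 250 bases before to 50 after an annotated start) are shown for RUNX3, the member with called probes, and for the distal start of RUNX2, which shares a stretch with it. Capitals mark RUNX motifs, read as TGTGGT or TGCGGT on either strand (ACCACA or ACCGCA on the strand printed). All windows are printed 5′ to 3′ on the gene's own strand.
RUNX3 upstream window, chr1:24964961-24965260, minus strand: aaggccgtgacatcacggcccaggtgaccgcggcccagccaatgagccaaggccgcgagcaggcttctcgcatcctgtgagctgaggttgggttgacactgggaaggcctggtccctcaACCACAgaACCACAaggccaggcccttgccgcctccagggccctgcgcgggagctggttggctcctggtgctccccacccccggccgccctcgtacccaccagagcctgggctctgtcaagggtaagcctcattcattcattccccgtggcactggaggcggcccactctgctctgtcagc
RUNX3 downstream window, chr1:24930227-24930526, minus strand: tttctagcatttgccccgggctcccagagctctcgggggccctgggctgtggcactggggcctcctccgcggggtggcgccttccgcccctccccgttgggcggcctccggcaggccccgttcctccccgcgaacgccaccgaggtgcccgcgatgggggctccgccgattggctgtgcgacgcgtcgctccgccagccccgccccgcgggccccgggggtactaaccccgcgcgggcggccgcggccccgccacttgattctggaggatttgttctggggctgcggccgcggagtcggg
RUNX2 upstream window, chr6:45328080-45328379, plus strand: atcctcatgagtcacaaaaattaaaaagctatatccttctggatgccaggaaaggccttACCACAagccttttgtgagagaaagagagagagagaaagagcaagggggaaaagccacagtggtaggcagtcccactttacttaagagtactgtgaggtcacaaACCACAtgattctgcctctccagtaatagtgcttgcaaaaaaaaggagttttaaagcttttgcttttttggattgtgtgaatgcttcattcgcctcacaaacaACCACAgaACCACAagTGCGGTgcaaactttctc

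The upstream RUNX3 window held 2 RUNX motifs, 8 bases apart from first base to first base, and the upstream RUNX2 window held 5. Both windows carry the same run of 18 bases, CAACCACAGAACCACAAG, which spans a tandem pair of motifs and was present in 2 of the 35116 promoter windows of the table. The run was looked for after the windows had been read. The pair starts 131 bases before the listed start in RUNX3 and 17 bases after it in RUNX2. The downstream RUNX3 window, the other RUNX2 window and the RUNX1 window listed (chr21:34888650-34888949, minus strand, 160603 bases inside the gene from its 5′ edge) held no RUNX motif, and CBFB was not listed. Of all windows, 19.6% held at least 1 RUNX motif and 2.32% at least 2. GATA motifs (AGATAA or AGATAG or TGATAA or TGATAG, found in 25.0% of all windows) and TCF/LEF motifs (CTTTGAA or CTTTGAT, in 6.86%) were not among the letters of any of these 5 windows. The ETS motif CCGGAA, in 17.2% of all windows, occurred once, in the RUNX1 window. These matches describe sequence only and say nothing of binding in these cells.

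Values below are normalized log2 intensities of single probes unless stated otherwise, and a level of 1 probe cannot be set against that of another. On each array 51.1% to 56.2% of probes were well above background, 31131 probes were tested, and a call is an adjusted p below 0.05 in limma. The 75th percentile of intensity before normalization was 280 ± 13.0 (SD, n = 2) in control, 176 ± 0.753 under shGATA3 and 172 ± 9.25 under shTCF1, each by array label. The control arrays lay in row 2 of the slide and all hairpin arrays in row 1, so that control against hairpin and the row of the slide cannot be told apart. Within row 1 the shTCF1 arrays lay at places 1 and 2 and the shGATA3 arrays at places 3 and 4. A difference between the hairpins and the place along the row therefore cannot be told apart either. The targeted transcripts bear on the labels. TCF7 was 12.58 and 12.68 on the arrays labelled shTCF1 against 13.96 and 13.91 on the control arrays, a called difference of -1.31 (SE 0.098, adjusted p 0.00393). GATA3 was 9.46 and 9.55 on the arrays labelled shGATA3 against 9.54 and 9.56 in control, which was not called (-0.050, SE 0.10, adjusted p 0.795), so that directions given below for shGATA3 are those of arrays with this label, in which GATA3 mRNA was not seen to fall. All 9 T-lineage marker genes examined (CD3E, CD3D, CD3G, CD5, CD7, CD2, PTCRA, NOTCH1 and DNTT) passed the background mark on every array.

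RUNX3, the family member of CD8 T cells and NK cells, was the member that fell: it was lower on the arrays labelled shTCF1 than on control by both of its probes. Probe A_33_P3221748 read 10.06 and 10.13 on the control arrays, 9.73 and 9.46 on those labelled shGATA3, and 9.15 and 9.29 on those labelled shTCF1. The 3 groups did not overlap, with control highest and shTCF1 lowest. The shTCF1 difference was -0.87 (SE 0.13, 95% interval -1.19 to -0.56, adjusted p 0.0132), which leaves 54.6% of the control level (43.7% to 68.0%). Probe A_23_P51231 read 7.85 and 7.92 on control, 7.56 and 7.31 under shGATA3, and 7.09 and 7.31 under shTCF1. Its order of groups was the same, but the lower shGATA3 array and the higher shTCF1 array were 7.314 and 7.306. The shTCF1 difference was -0.69 (SE 0.14, 95% interval -1.02 to -0.36, adjusted p 0.0255), or 62.0% of control (49.2% to 78.1%).

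The 2 RUNX3 probes were the only called ones of the 8 tested member probes in this comparison, where 16.9% of all tested probes were called and 9.73% were called lower. That split, 2246 higher and 3028 lower, depended on the scaling: it was 2671 and 2200 with the 75th percentile and 2862 and 2509 with quantile normalization. Of all tested probes 4.27% and 7.04% had a difference as low as the 2 RUNX3 probes or lower. Both calls were lost when control replicate 1 (adjusted p 0.0634 for A_33_P3221748 and 0.105 for A_23_P51231), control replicate 2 (0.0576 and 0.107) or shTCF1 replicate 1 (0.0597 and 0.0982) was left out, and that of A_23_P51231 also without shTCF1 replicate 2 (0.0573) and without a filter on dim probes (0.0693). Fewer cells with RUNX3 mRNA and less RUNX3 mRNA per cell cannot be told apart in these bulk samples.

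On the arrays labelled shGATA3 RUNX3 lay below control by -0.50 (SE 0.13, 95% interval -0.82 to -0.18) and -0.45 (SE 0.14, 95% interval -0.78 to -0.11), and neither probe passed the test (adjusted p 0.0781 and 0.108). With normexp background correction both would be called (adjusted p 0.0143 and 0.0343), and A_33_P3221748 also with an intensity trend in the variance (0.0206). Between the hairpins RUNX3 was 0.38 (SE 0.13, adjusted p 0.158) and 0.24 (SE 0.14, adjusted p 0.342) higher on the arrays labelled shGATA3, again without a call, so a difference in RUNX3 between the hairpins was not shown.

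**Figure D1:**
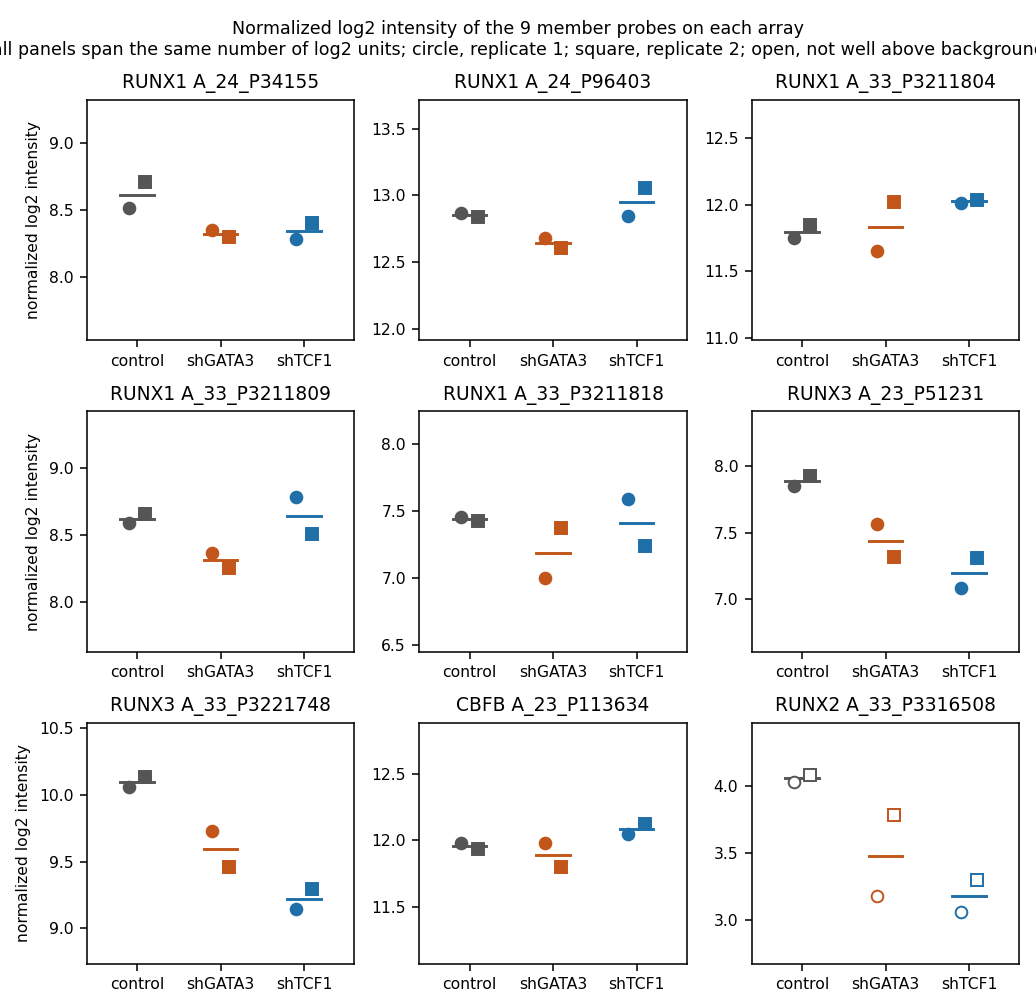
Normalized log2 intensity (y axis) of each of the 9 member probes on the 6 arrays, by group (x axis); circles are replicate 1, squares replicate 2, lines the group means, and open symbols probes not well above background. Both RUNX3 probes step down from control to shGATA3 to shTCF1, while the RUNX1 and CBFB group means lie between -0.31 and 0.23 from that of control.

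RUNX1, which is needed for blood stem cells to form and is often mutated in leukaemia, had 5 probes, and 0 of them were called in any of the 3 comparisons. The brightest, A_24_P96403, was annotated to the transcript of isoform RUNX1b and read 12.87 and 12.84 on control, 12.68 and 12.61 under shGATA3, and 12.85 and 13.06 under shTCF1. Its arrays labelled shGATA3 lay below all others, by -0.21 from control (SE 0.11, adjusted p 0.293) and by -0.31 from shTCF1 (SE 0.11, adjusted p 0.178). The last of these was called with normexp correction (adjusted p 0.0464). The interval of its shTCF1 difference, -0.18 to 0.38 around 0.097, leaves room for between 88.2% and 130% of the control level.

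The other RUNX1 probes differed in their order of groups. A_33_P3211809, annotated to the short isoform RUNX1a, read 8.59 and 8.65 on control, 8.37 and 8.25 under shGATA3, and 8.78 and 8.50 under shTCF1, so shGATA3 was again lowest (-0.31 from control, adjusted p 0.194). A_24_P34155, also annotated to RUNX1a, read 8.51 and 8.71 on control, 8.35 and 8.29 under shGATA3, and 8.28 and 8.40 under shTCF1. There both hairpin groups lay below control, by -0.29 (adjusted p 0.181) and -0.27 (adjusted p 0.162). A_33_P3211818 read 7.46 and 7.42, 6.995 and 7.37, and 7.59 and 7.24 in the same order, and only its shGATA3 arrays lay below both control arrays. A_33_P3211804 read 11.75 and 11.84, 11.65 and 12.02, and 12.01 and 12.03, with shTCF1 0.23 above control (adjusted p 0.306) and shGATA3 overlapping it. In all, 4 of the 5 RUNX1 probes had both arrays labelled shGATA3 below both control arrays, a pattern that 31.1% of all tested probes showed. Over the 6 arrays the 5 probes correlated with each other at between -0.33 and 0.66, whereas the 2 RUNX3 probes correlated at 0.991. These are descriptions over arrays that share groups, and which RUNX1 isoforms each probe detects was not tested.

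CBFB, without which RUNX proteins bind DNA poorly, had the narrowest range over the 6 arrays of the 8 tested probes. Its probe A_23_P113634 read 11.98 and 11.94 on control, 11.98 and 11.80 under shGATA3, and 12.05 and 12.12 under shTCF1. The shTCF1 arrays were the highest, but neither the difference from control (0.12, SE 0.11, 95% interval -0.14 to 0.39, adjusted p 0.454) nor that between the hairpins (-0.19, SE 0.11, adjusted p 0.355) was called. The shGATA3 difference from control was -0.066 (95% interval -0.33 to 0.20, adjusted p 0.736). These intervals leave CBFB at between 79.3% and 115% of control under shGATA3 and between 90.5% and 131% under shTCF1.

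RUNX2 had a single probe, A_33_P3316508, which was not well above background on any of the 6 arrays and was not tested. Its readings of 4.04 and 4.08 on control, 3.18 and 3.78 under shGATA3, and 3.06 and 3.30 under shTCF1 lie in the range of background, so their order carries no level and no fold is given. RUNX2 mRNA was therefore not detectable with this probe, which does not show that it is absent.

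Across the 8 tested member probes the shGATA3 comparison gave 0 calls in limma, where 6.84% of all tested probes were called, and 3 member probes had an unadjusted p under 0.05, as did 8256 of all 31131 tested probes. In 6 of the 8 probes both arrays labelled shGATA3 lay below both control arrays, a pattern that 31.1% of all tested probes showed, and in 0 they lay above, as they did in 29.1% of all tested probes. The median difference was -0.27 over the members and -0.011 over all tested probes. The 6 probes belong to RUNX1 and RUNX3 only, and 4 of them are probes of the same gene, RUNX1. Between the hairpins 0 member probes were called against 6.18% of all tested probes, 3 had an unadjusted p under 0.05, as did 7296 of all tested probes, 3 lay lower under shGATA3 without overlap (26.1% of all) and 2 higher (25.9% of all). Under shTCF1 3 lay below control without overlap (35.1% of all) and 2 above (31.8% of all), and the median difference was -0.0026. The 2 comparisons with control share the control arrays.

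**Figure D2:**
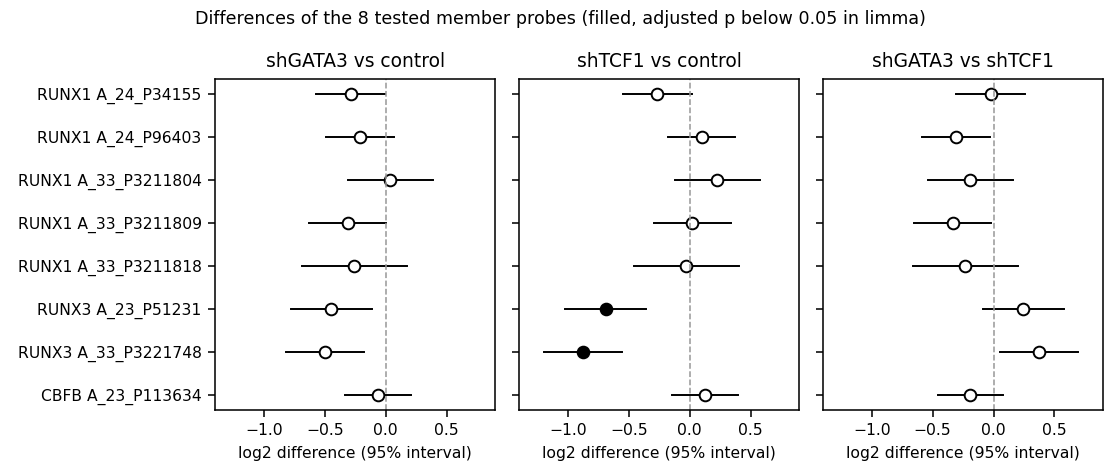
Log2 differences (x axis) of the 8 tested member probes in the 3 comparisons, with 95% intervals from limma; filled circles have an adjusted p below 0.05 and open circles do not. The 2 filled circles are RUNX3 under shTCF1, at -0.69 and -0.87, and RUNX3 under shGATA3 follows at -0.45 and -0.50 with open circles.

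RUNX proteins act through partners, and of 22 listed corepressors and coactivators 19 were tested. On the arrays labelled shGATA3 2 of them rose and 1 fell, under shTCF1 2 rose and 0 fell, and the other 16 and 17 did not pass the test. The shares called over all tested probes were 6.84% and 16.9%. The median difference of the list was -0.053 and -0.094, beside -0.011 and -0.020 over all tested probes. Most of the core machinery was among the uncalled. SIN3A, HDAC1, HDAC3, NCOR1, EP300, CREBBP and KMT2A had differences between -0.22 and 0.28 in either comparison with control. NCOR1 and EP300 varied widely between arrays (SE 0.25 and 0.23), so their small differences do not show that they were unchanged. Larger uncalled differences included TLE4 (0.44) and SUV39H1 (-0.36) under shTCF1, and ETS1 (-0.34) and PRMT1 (-0.31) under shGATA3.

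CBFA2T3 (ETO2), an ETO-family corepressor that also sits in TAL1 complexes, was the partner that moved most. It read 8.84 and 8.85 on control, 7.06 and 7.01 under shGATA3, and 9.17 and 9.35 under shTCF1. The hairpin groups lay on opposite sides of control without overlap. The fall under shGATA3 of -1.81 (SE 0.11, adjusted p 0.00213) and the difference between the hairpins of -2.22 (SE 0.11, adjusted p 0.000870) were called in all 6 fits that left out 1 array. The rise under shTCF1 of 0.42 (SE 0.11, adjusted p 0.0494) was called in 0 of these 6 fits (adjusted p 0.0707 to 0.200) and not with a replicate block (0.0786).

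TLE1, a Groucho corepressor that RUNX proteins and TCF1 can both recruit, had 2 probes that disagreed. A_23_P135239 read 8.96 and 8.88 on control, 9.41 and 9.40 under shGATA3, and 8.56 and 8.67 under shTCF1, and it rose by 0.49 under shGATA3 (SE 0.10, adjusted p 0.0470) and differed by 0.79 between the hairpins (adjusted p 0.0116). A_33_P3217719 gave 0.34 under shGATA3 (adjusted p 0.152), a called rise of 0.47 under shTCF1 (adjusted p 0.0498) and -0.13 between the hairpins (adjusted p 0.560), so that no direction under shTCF1 is given for TLE1. KAT6B, a MYST acetyltransferase, rose in both comparisons by A_23_P388855 (0.55, adjusted p 0.0378 under shGATA3 and 0.44, adjusted p 0.0405 under shTCF1), whereas A_33_P3287731 gave 0.52 (adjusted p 0.114) and -0.031 (adjusted p 0.907). The first-named TLE1 and KAT6B rises against control were called in 0 of the 6 fits that left out 1 array (adjusted p 0.0726 to 0.182 for TLE1, 0.0565 to 0.176 and 0.0583 to 0.175 for KAT6B) and not with a replicate block (0.0836, 0.0692 and 0.0697).

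**Figure D3:**
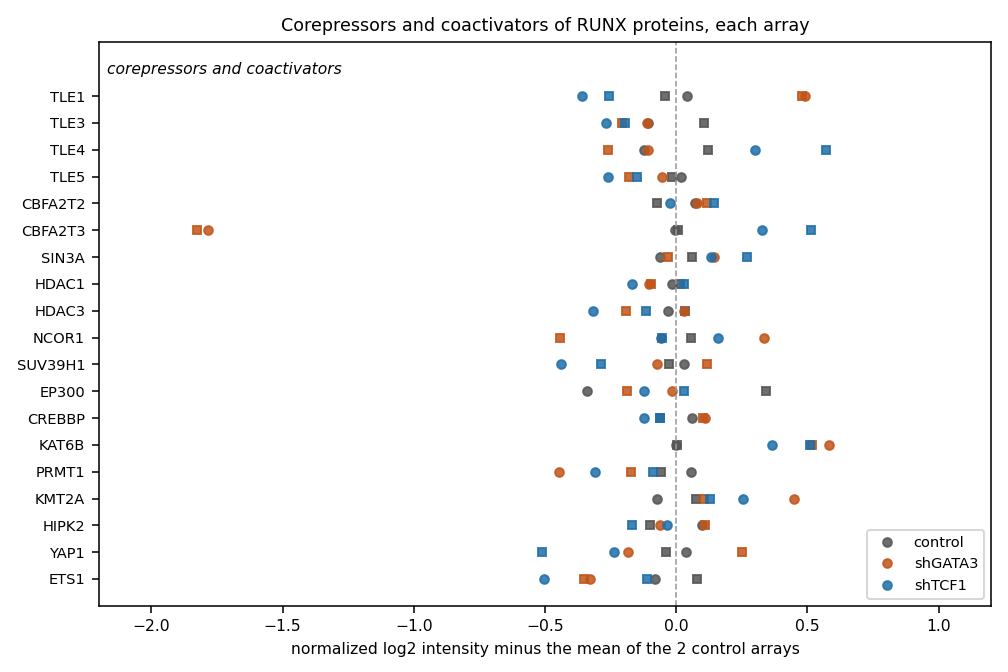
Normalized log2 intensity minus the mean of the 2 control arrays (x axis) on each array for the 19 tested corepressors and coactivators (y axis); circles are replicate 1, squares replicate 2, and colours the groups. CBFA2T3 stands apart, at a mean of -1.81 on the arrays labelled shGATA3 and of 0.42 on those labelled shTCF1.

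Genes known to be activated by RUNX proteins in lymphocytes did not move as 1 group. Of 16 listed, 10 were tested, of which 1 rose and 1 fell under shGATA3 and 0 rose and 2 fell under shTCF1. Over all tested probes 6.84% and 16.9% were called. GZMB, granzyme B of cytotoxic granules, read 8.78 and 8.68 on control, 12.15 and 12.22 under shGATA3, and 6.69 and 6.56 under shTCF1, and these groups were far apart. It rose by 3.46 (SE 0.11, adjusted p 0.000917) and fell by 2.10 (SE 0.11, adjusted p 0.00250). IL2RB, the receptor chain shared by IL-2 and IL-15, read 7.81 and 7.94 on control, 6.74 and 6.64 under shGATA3, and 7.15 and 7.23 under shTCF1, so both hairpin groups lay below control. It fell by 1.18 (SE 0.11, adjusted p 0.00583) and by 0.68 (SE 0.11, adjusted p 0.0149); the second call was lost without either control array or either shTCF1 array (adjusted p 0.0522 to 0.0750).

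CD8A, the co-receptor gene that RUNX3 is best known to activate, was not called. By A_33_P3228837 it read 7.60 and 8.22 on control, 6.84 and 6.94 under shGATA3, and 6.69 and 7.68 under shTCF1, with differences of -1.02 (SE 0.35, adjusted p 0.139) and -0.73 (SE 0.35, adjusted p 0.199). The spread between arrays was wide, and the second probe, A_32_P163247, gave 0.14 and 0.26. CD4, which RUNX proteins silence, read 11.65 and 11.64 on control, 12.01 and 12.15 under shGATA3, and 12.55 and 12.53 under shTCF1. It was highest where RUNX3 was lowest, rose by 0.89 under shTCF1 (SE 0.10, adjusted p 0.00774, called in all 6 fits that left out 1 array) and was not called under shGATA3 (0.44, SE 0.10, adjusted p 0.0606) except with normexp correction, an intensity trend or the stricter filter on dim probes (adjusted p 0.0122 to 0.0425). That CD4 was higher and RUNX3 lower describes 2 genes on the same 6 arrays, and a link between them was not tested.

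Of 12 listed RUNX1 targets of myeloid cells and progenitors 7 were tested, and 3 fell under shGATA3 and 2 under shTCF1 with 0 rising, where 6.84% and 16.9% of all tested probes were called, and 9.73% were called lower under shTCF1. HHEX, a homeobox regulator of early lymphoid progenitors, read 10.19 and 10.23 on control, 8.43 and 8.38 under shGATA3, and 9.72 and 9.69 under shTCF1. It fell by 1.80 (SE 0.095, adjusted p 0.00169, called without any single array) and by 0.50 (SE 0.095, adjusted p 0.0231, lost without either control or either shTCF1 array, adjusted p 0.0757 to 0.117). SPI1, which encodes PU.1 and has a RUNX1-bound enhancer, read 7.49 and 7.26 on control, 6.81 and 6.65 under shGATA3, and 6.77 and 6.65 under shTCF1. Its falls of 0.65 (adjusted p 0.0425) and 0.67 (adjusted p 0.0246) were close to each other in size, and were called in 0 of 6 (adjusted p 0.0685 to 0.204) and 2 of 6 fits that left out 1 array (up to 0.132 without control replicate 1). GFI1B is a transcriptional repressor that acts in erythroid and megakaryocytic cells. It read 7.34 and 7.23 on control, 5.77 and 6.52 under shGATA3, and 7.57 on both arrays labelled shTCF1. Its fall of 1.14 under shGATA3 (SE 0.24, adjusted p 0.0481) was called in 1 of 6 such fits and, of the scalings, was lost with the 75th percentile, quantile and cyclic loess (adjusted p 0.0718 to 0.0762).

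Of 8 RUNX2 targets of the skeleton 5 were tested. Under shGATA3 0 were called and under shTCF1 1, beside 6.84% and 16.9% of all tested probes. COL10A1, a collagen of growth-plate cartilage, read 6.06 and 6.14 on control, 6.33 and 6.28 under shGATA3, and 6.72 and 6.98 under shTCF1, and it rose by 0.75 under shTCF1 (SE 0.12, adjusted p 0.0162). Leaving out control replicate 1 (0.0922), shTCF1 replicate 2 (0.0589) or control replicate 2 (0.0562) ended the call. The other 4, SP7, BGLAP, ALPL and COL1A1, had differences between -0.19 and 0.40 from control and were not called.

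In T-ALL RUNX1 works in a circuit with TAL1, GATA3 and their cofactors, and 12 of 13 listed genes of it were tested. Under shGATA3 1 rose and 1 fell, and under shTCF1 1 rose and 1 fell, beside 6.84% and 16.9% of all tested probes called. LMO1, a LIM-only cofactor of TAL1, read 14.17 on both control arrays, 14.99 and 14.96 under shGATA3, and 14.23 and 14.37 under shTCF1. It rose by 0.80 under shGATA3 (SE 0.10, adjusted p 0.0135, called in 2 of 6 fits that left out 1 array). ALDH1A2, a retinoic acid synthesis enzyme that TAL1 induces in T-ALL, read 8.16 and 8.13 on control, 7.16 and 7.33 under shGATA3, and 5.99 and 6.39 under shTCF1. It fell by 0.90 (SE 0.15, adjusted p 0.0295, called in 2 of 6 such fits and lost with quantile normalization at 0.0598) and fell by 1.96 (SE 0.15, adjusted p 0.00423, called in 6 of 6). STAT5A, which signals from cytokine receptors, rose by 0.86 under shTCF1 (SE 0.14, adjusted p 0.0149, called in 2 of 6). TAL1 itself, MYB, TCF3 and LDB1 had differences between -0.23 and 0.21 from control and were not called.

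**Figure D4:**
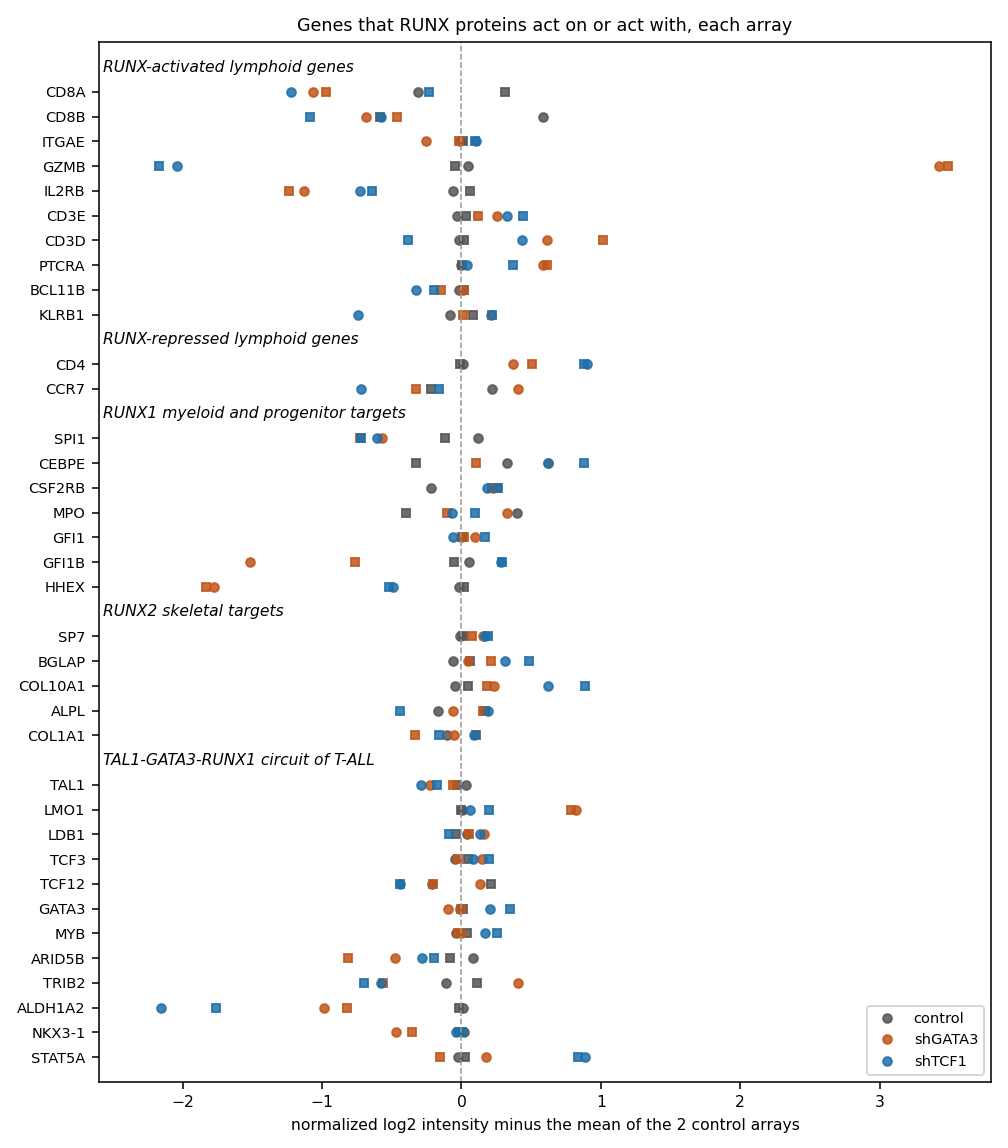
Normalized log2 intensity minus the mean of the 2 control arrays (x axis) on each array for the 36 tested target and circuit genes (y axis, by list); circles are replicate 1, squares replicate 2, and colours the groups. GZMB lies 3.46 above control under shGATA3 and at -2.10 under shTCF1, HHEX lies lowest of the 36 under shGATA3, and ALDH1A2 comes next to GZMB at the low end under shTCF1.

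Over these 6 lists 10 of 55 tested genes (18.2%) were called under shGATA3, 10 of 55 (18.2%) under shTCF1 and 8 of 55 (14.5%) between the hairpins, beside 6.84%, 16.9% and 6.18% of all tested probes. The medians of the 55 genes were 0.011, -0.032 and 0.016. The genes were listed for their known ties to RUNX proteins with earlier results of these data in view, so these shares describe the lists and support nothing further. At the loci themselves RUNX1-IT1, a noncoding RNA within RUNX1, lay -0.091 and -0.089 from control under shGATA3 and shTCF1 (adjusted p 0.620 and 0.586), and was not called. SUPT3H, which overlaps the RUNX2 locus, and RCAN1, a neighbour of RUNX1, were not called either, with differences between -0.31 and 0.011.

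Markers of other blood cells gave a background for these values. Of those with a probe, 2 of 5 B-cell, 3 of 5 myeloid, 3 of 5 NK and 3 of 5 erythroid and megakaryocytic genes passed the background mark on every array. Of the defining markers, PAX5, CD22 and EBF1 of B cells, CSF1R and FCGR3A of myeloid cells, KLRD1 and KLRF1 of NK cells and HBB of red cells were not tested because they were dim. The summed intensity of the NK markers was 2090 to 2113 on control, 1836 to 2058 on the arrays labelled shGATA3 and 2018 to 2093 on those labelled shTCF1. Its range under shTCF1 overlaps that of control, and its range under shGATA3 lies below that of control. NKG7, the brightest of these markers, weighs most in the sum. Its arrays labelled shGATA3 overlapped control (-0.096, adjusted p 0.641 in limma). All 3 tested NK markers had negative differences under shGATA3, and 0 were called. Under shTCF1 the sums of 3 other lists lay above control without overlap. The B-cell sum was 249 to 255 on control, 258 to 259.6 under shGATA3 and 318 to 322 under shTCF1. The erythroid and megakaryocytic sum was 399 to 484, 484 to 577 and 583 to 585 in the same order, and the osteoblast sum 763 to 826, 830.1 to 860.0 and 939 to 985. The myeloid sums overlapped in all 3 groups (279 to 306, 299 to 303 and 288 to 312). The T-lineage sum was 65706 to 68392 on control, higher under shGATA3 (97209.7 to 113669.7) and overlapping control under shTCF1 (64685 to 82620.1). The brightest probe weighs most in such a sum. Here that was CD3D (mean 15.13 on control), whose difference under shGATA3 was not called in limma (0.81, adjusted p 0.138). Of the 9 T-lineage genes, 2 were called higher under shGATA3, 1 lower and 6 were not called. The sum therefore does not show a rise of the list as a whole. The part of these lists in the results was not tested. CD2, a T-lineage marker, fell by 2.19 under shTCF1 (SE 0.094, adjusted p 0.00199) and by 0.47 under shGATA3 (SE 0.094, adjusted p 0.0439), beside the fall of RUNX3, and its part in the RUNX3 result was not tested.

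The genes whose pattern over the 6 arrays was most like that of each member were named by the highest Pearson correlation with its brightest probe, among 17167 to 17171 named probes that passed the background mark on every array. For RUNX3 these were NAE1 (0.998), USP34 (0.997) and MFN2 (0.997), which differed from control under shTCF1 by -0.39, -0.36 and -0.36, less than the -0.87 of RUNX3. For RUNX1 they were ST8SIA4 (0.995), DDOST (0.994) and TMEM71 (0.991), all lower under shGATA3 than under shTCF1, by -0.54, -0.37 and -0.42. For CBFB they were ATP2A3 (0.992), TMEM40 (0.992) and MTF2 (0.989). Correlations above 0.9 are common over 6 arrays in 3 groups, with 1420 probes (8.27%) for RUNX3, 367 (2.14%) for RUNX1 and 311 (1.81%) for CBFB.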

How the data were processed

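Cy3-labelled cRNA of 6 RPMI-8402 samples was hybridised to 1 array each of a custom 1-colour Agilent design. Per the file headers, the deposited intensity of each spot came from Feature Extraction 10.7.1.1, background-subtracted and detrended but not scaled between arrays, and the design named build hg19. The labels name Feature Extraction 9.1. The scanner files' outlier, saturation and background marks are other deposited values. The authors' deposited matrix of log2 values, VSN-normalized per their methods, was used only as an alternative, since 2 of its 6 columns followed their own array best.

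Outlier spots were removed (71 probes lost), spots of a probe were averaged, and the remaining 57105 of 57176 probes were normalized with a VSN model written anew in R 4.3.3 (quantile 0.9, 7 iterations, 5 strata). Probes marked well above background on both arrays of any group (31131) entered 1 limma 3.58.1 fit over the 6 arrays with group only (two-sided, Benjamini-Hochberg, 3 residual and 2.97 prior degrees of freedom). An exact permutation test of 2 against 2 arrays cannot go below a two-sided p of 0.333, so calls rest on the spread pooled over probes, and the number of arrays limits the precision. Accessions were matched without version to RefSeq symbols for 25729 probes. For a listed gene the tested probe with the largest mean was used, and from each list the called genes, at most 4 each way, were named. Members and lists were chosen with earlier results of these data known. The fit was tested on simulated data. The alternatives were 3 other scalings, normexp correction, the deposited matrix, 2 other filters, 2 variance models, fits of 2 groups, a replicate block and leaving out each array. A slide or scan block was not possible, since all arrays shared 1 slide and 1 scan time.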

Additional observations from a re-analysis of the deposited data

Results flagged for a closer look

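Of the named genes tied to RUNX proteins, 8, and the targeted gene TCF7 differed between the 2 hairpin groups by a test of the difference itself in limma (shGATA3 minus shTCF1, 2 arrays each). GZMB differed by 5.56 on the log2 scale (adjusted p 0.000108) and TCF7 by 1.63 (adjusted p 0.00124), and both differences were called in all 6 fits that left out 1 array. CBFA2T3 differed by -2.22 (adjusted p 0.000870) and HHEX by -1.30 (adjusted p 0.00223), also called in all 6. ALDH1A2 differed by 1.06 (adjusted p 0.0183), GFI1B by -1.43 (adjusted p 0.0272), TLE1 by 0.79 (adjusted p 0.0116, by 1 of its 2 probes), STAT5A by -0.85 (adjusted p 0.0238) and LMO1 by 0.67 (adjusted p 0.0197), each with no overlap between the groups. The last 5 were lost in at least 3 of the 6 fits that left out 1 array, with adjusted p up to 0.113. No RUNX1, RUNX3 or CBFB probe was called between the hairpins. The hairpin groups also lay at different places along the row of the slide, which cannot be told apart from the hairpin.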

How the results depend on the processing

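With 2 arrays a group, calls depended on single arrays and on the pooled spread. The row of the slide cannot be told apart from control against hairpin, nor the place along the row from shGATA3 against shTCF1. Dim probes such as that of RUNX2 have no measured level. Both RUNX3 probes kept their direction under all 17 alternatives, and their shTCF1 calls held under the 3 other scalings, normexp and the replicate block (adjusted p 0.0278 and 0.0465). The deposited matrix gave 0 calls throughout (1814, 2653 and 1642 of all probes at an unadjusted p under 0.05 for shGATA3 against control, shTCF1 against control and between the hairpins). Member calls under shTCF1 were then 0, and 1 without the filter on dim probes; under shGATA3 they were 2 with normexp and 1 with an intensity trend, and between the hairpins 1 with normexp. Leaving out 1 array gave 0 to 2 under shTCF1 and 0 to 0 otherwise. Of the 55 listed genes, calls under shGATA3 fell from 10 to 5 without the filter and 4 to 7 without 1 array; under shTCF1 from 10 to 3 to 9; between the hairpins from 8 to 5 without the filter and 3 to 5 without 1 array, and rose to 14 with an intensity trend; the matrix gave 0. Over all probes the 2130 calls under shGATA3 (896 higher, 1234 lower) became 1809 with the 75th percentile (969 higher, 840 lower), 1996 with quantile normalization (1057 higher, 939 lower), 4291 with normexp, 560 without the filter, 3910 with an intensity trend, 1328 with the replicate block and 428 to 1564 without 1 array. The 5274 under shTCF1 became 2272 without the filter, 3853 with the block and 1392 to 4441 without 1 array. The 1925 between the hairpins became 3284 with normexp, 901 without the filter, 3273 with an intensity trend, 1214 with 2 groups only, 1285 with the block and 676 to 1058 without 1 array. Arrays of the same replicate number did not deviate together (correlations -0.040, -0.0098 and 0.049), so the replicate block pairs samples by a number only.

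Some values turned sign. With the deposited matrix, CBFB under shGATA3 was 0.56, IL2RB 0.22 under shGATA3 and 0.84 under shTCF1, SPI1 0.55, 0.57 and -0.014 between the hairpins, STAT5A -0.20 under shGATA3, RUNX1 A_24_P96403 -0.23 under shTCF1, A_33_P3211809 1.11 and A_33_P3211818 1.18 under shGATA3, and the last 1.23 under shTCF1; the cause was not tested. The last was also 0.027 with the 75th percentile, 0.037 with quantile normalization and 0.0076 with cyclic loess. GATA3 under shGATA3 was 0.00047 with the 75th percentile. Without 1 array, CBFB under shGATA3 ranged from -0.16 to 0.024, RUNX1 A_24_P34155 between the hairpins from -0.083 to 0.035, A_24_P96403 under shTCF1 from -0.011 to 0.20, A_33_P3211804 under shGATA3 from -0.15 to 0.21, A_33_P3211809 under shTCF1 from -0.12 to 0.16, A_33_P3211818 under shTCF1 from -0.21 to 0.15, SPI1 between the hairpins from -0.067 to 0.095 and STAT5A under shGATA3 from -0.16 to 0.18. All were uncalled in the setting where they turned, and the IL2RB and SPI1 calls against control turned only with the matrix.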

Other observations

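Among the T-lineage markers, genes outside the RUNX lists also moved. NOTCH1, the receptor that starts the T-cell programme, has 2 probes, of which only A_33_P3370424 was examined. This probe read 9.13 and 9.10 on control, 9.59 and 9.65 under shGATA3, and 10.03 and 10.07 under shTCF1. Its order of groups was the reverse of that of RUNX3. By this probe NOTCH1 rose under both hairpins in limma, by 0.50 (SE 0.095, adjusted p 0.0386) and by 0.94 (SE 0.095, adjusted p 0.00655). DNTT, the terminal transferase that adds bases at V(D)J joints, rose by 0.73 under shGATA3 (SE 0.12, adjusted p 0.0262) and was not called under shTCF1 (0.080, SE 0.12, adjusted p 0.662). CD3G rose by 0.63 under shTCF1 (SE 0.15, adjusted p 0.0370) and read 0.62 above control under shGATA3 (adjusted p 0.0620). These 3 genes were not run under the alternatives.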
